A study of Mus musculus with 12 samples.

Results

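The nuclear genes of oxidative phosphorylation were examined in RNA-seq of LSKs, the Lin- Sca-1+ c-Kit+ bone marrow cells that hold hematopoietic stem cells and early progenitors. The members were the protein-coding genes whose symbols begin with Nduf (followed by a, b, c, s or v), Uqcr, Cox4 to Cox8 or Atp5, together with Sdha, Sdhb, Sdhc and Sdhd, and 93 of the 53465 genes in the table met this rule. The rule reads symbols and gene type, not expression values, though it was set with earlier results of these data known. The series holds 12 libraries in 4 groups of 3: untreated Tespa1+/+, untreated Tespa1-/-, Tespa1+/+ given 5-FU (5-fluorouracil) and sampled on day 9, and Tespa1-/- given 5-FU and sampled on day 9. The mice were males of the B6.129S-Tespa1tm1Smoc line on a C57BL/6 background, aged 8 to 10 weeks, with littermate wild-type controls. The Tespa1 allele of this line is not described as limited to a cell type, and 5-FU, which kills dividing cells, was given once into the peritoneum. The labels also call the cells hematopoietic stem cells, and whether cells of several mice were pooled in a library is not given in the sources used here.

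Mitochondria make ATP by passing electrons from NADH and succinate to oxygen and using the proton gradient that results. Complex I (NADH dehydrogenase) and complex II (succinate dehydrogenase) feed electrons to ubiquinone, complex III (cytochrome bc1) passes them to cytochrome c, complex IV (cytochrome c oxidase) reduces oxygen, and ATP synthase turns the gradient into ATP. Most subunits are encoded in the nucleus, while the mitochondrial genome encodes core subunits of every complex except complex II. Quiescent hematopoietic stem cells are known to rely little on respiration, and their dependence on it rises as they divide and differentiate.

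Between 22118154 and 28275079 reads were counted on genes in each library, and 3 counts, taken as the detection limit, equalled 0.106 to 0.136 CPM on the library totals before TMM scaling. Elsewhere CPM is the count as a share of the library total, adjusted by a TMM factor and scaled up by the usual constant, and this limit covers counting error only. Tespa1, the targeted gene, was at 43.0 to 49.8 CPM in untreated Tespa1+/+, 34.5 to 34.98 in untreated Tespa1-/-, 47.2 to 57.4 in Tespa1+/+ after 5-FU and 17.3 to 20.8 in Tespa1-/- after 5-FU, so reads remained in both Tespa1-/- groups. The difference was called in every fit after 5-FU, but in untreated LSKs (log2 -0.42, adjusted p = 0.032) the call was lost in 4 of 11 alternatives, the replicate block among them, and in 5 of 6 fits with 1 library left out, with adjusted p up to 0.140. The exons removed are not given with the table, so this count checks the labels in part. The 10 LSK markers summed to 1599.9 to 1672 CPM in untreated Tespa1+/+, 1334 to 1386 in untreated Tespa1-/-, 1329.7 to 1374 in Tespa1+/+ after 5-FU and 800.0 to 868 in Tespa1-/- after 5-FU. The sum is not the whole list: with 5-FU in Tespa1+/+, 8 of the 10 had fold changes above 0 (median 0.37 on the log2 scale, 2 called higher and 2 lower). The last group also stood apart in the markers of some lineages. The 14 neutrophil markers summed to 5288 to 5587 CPM against 2332 to 2545 in Tespa1+/+ after 5-FU. The 12 erythroid markers summed to 702 to 709.8 against 178 to 186, and the 6 eosinophil and mast cell markers to 644 to 673 against 19.5 to 20.7. In untreated LSKs the neutrophil markers summed to 3289.6 to 3483 CPM in Tespa1-/- and 2412 to 2512 in Tespa1+/+, again without overlap. The 8 B cell markers summed to 64.1 to 77.1 CPM in untreated Tespa1+/+ and 42.2 to 48.3 in untreated Tespa1-/-, and to 287 to 298 and 327 to 344 after 5-FU. The 6 megakaryocyte markers summed to 44.2 to 50.8 and 74.996 to 79.9 CPM untreated, and to 173 to 194 and 251 to 263 after 5-FU, in the same order. After 5-FU the 6 T cell markers overlapped, at 19.5 to 21.4 CPM in Tespa1+/+ and 17.4 to 23.7 in Tespa1-/-. The 8 monocyte and macrophage markers summed to 222.5 to 234.0 and 234.9 to 245 CPM, with 0 called higher and 1 lower. In a bulk library, a change in the mix of cells cannot be told apart from a change in RNA per cell.

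Promoters were compared for shared sequence before the levels. RefSeq (GRCm38.p6) held windows of 250 bases before to 50 bases after a start for 74 of the 93 members, 79 windows in all. The palindromic NRF1 motif was in 25.3% of the member windows and in 4.60% of 32851 windows of that length. The letters CCGGAAG, the core of the site of ETS factors such as GABPA, were in 22.8% and 8.86%, and AAGATGGC, the site of YY1, in 12.7% and 2.75%. CACGTG, the E-box that MYC binds, was in 7.59% and 7.15%, CAAGGTCA, the site of the estrogen-related receptors, in 5.06% and 1.56%, and TATAAA in 10.1% and 13.6%. Both strands were searched, and a match is a description of the letters. Of the 74 members with a window, 33 held the NRF1 motif or the ETS letters, 4 of them among the 9 with a window that were called below in Tespa1-/- LSKs after 5-FU and 29 among the other 65. The 3 stretches printed here are 120 bases each, end 50 bases before the RefSeq start and are read on the strand of the gene, with matches to the NRF1 motif and the ETS letters in capitals. They were chosen because Cox6a1 and Uqcr11 were the called members above 1.5-fold whose windows held such letters, and because Uqcrfs1, called both for the genotype after 5-FU and for the interaction, held none in its window. They lie at chr5:115349009-115349128, minus strand (Cox6a1), chr10:80406872-80406991, minus strand (Uqcr11), and chr13:30545367-30545486, minus strand (Uqcrfs1).
Cox6a1: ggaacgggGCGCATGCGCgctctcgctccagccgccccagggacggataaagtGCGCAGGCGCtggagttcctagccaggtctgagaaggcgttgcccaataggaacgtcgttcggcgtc
Uqcr11: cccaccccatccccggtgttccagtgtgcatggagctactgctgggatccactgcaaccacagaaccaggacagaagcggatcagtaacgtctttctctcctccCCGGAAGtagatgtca
Uqcrfs1: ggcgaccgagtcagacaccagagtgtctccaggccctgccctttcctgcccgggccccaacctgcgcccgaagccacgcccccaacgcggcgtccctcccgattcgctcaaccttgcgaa

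The members differed widely in level. On the scale of CPM per kilobase of merged exons, averaged over the 12 libraries, Cox8a, a small structural subunit of complex IV, was highest at 127 (lowest to highest library 99.1 to 151), followed by Atp5a1, the alpha subunit of ATP synthase, at 91.2 (80.3 to 105) and Ndufa6, an accessory subunit of complex I, at 85.4 (72.2 to 93.6). The libraries of these neighbours overlapped in range. Among the catalytic subunits, the ATP synthase beta subunit Atp5b was at 64.6, the Rieske iron-sulfur protein Uqcrfs1 at 49.1, and the flavoprotein of complex II, Sdha, at 39.2. On this scale, subunits of the same complex did not stand at the same level. In the complex I core Ndufs3 was at 6.11 and Ndufs8 at 34.6. This gap comes in part from the scale: their merged exons span 3499 and 963 bases, but their longest coding transcripts have 1046 and 1005. Ndufs3 also shares sequence with other genes. The assembly factors of complex I lay between 2.11 (Ndufaf3) and 8.98 (Ndufaf8). The exons merged for a gene include long alternative ends, so this scale understates genes such as Atp5g1, whose merged exons span 9797 bases. It also sets the order at the top. Merged exons span 5271 bases in Atp5a1 and 6918 in Atp5b, but their longest coding transcripts have 2674 and 1916. For Cox8a these lengths are 545 and 550. On transcript length Atp5a1 and Atp5b would stand above Cox8a.

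**Figure D1:**
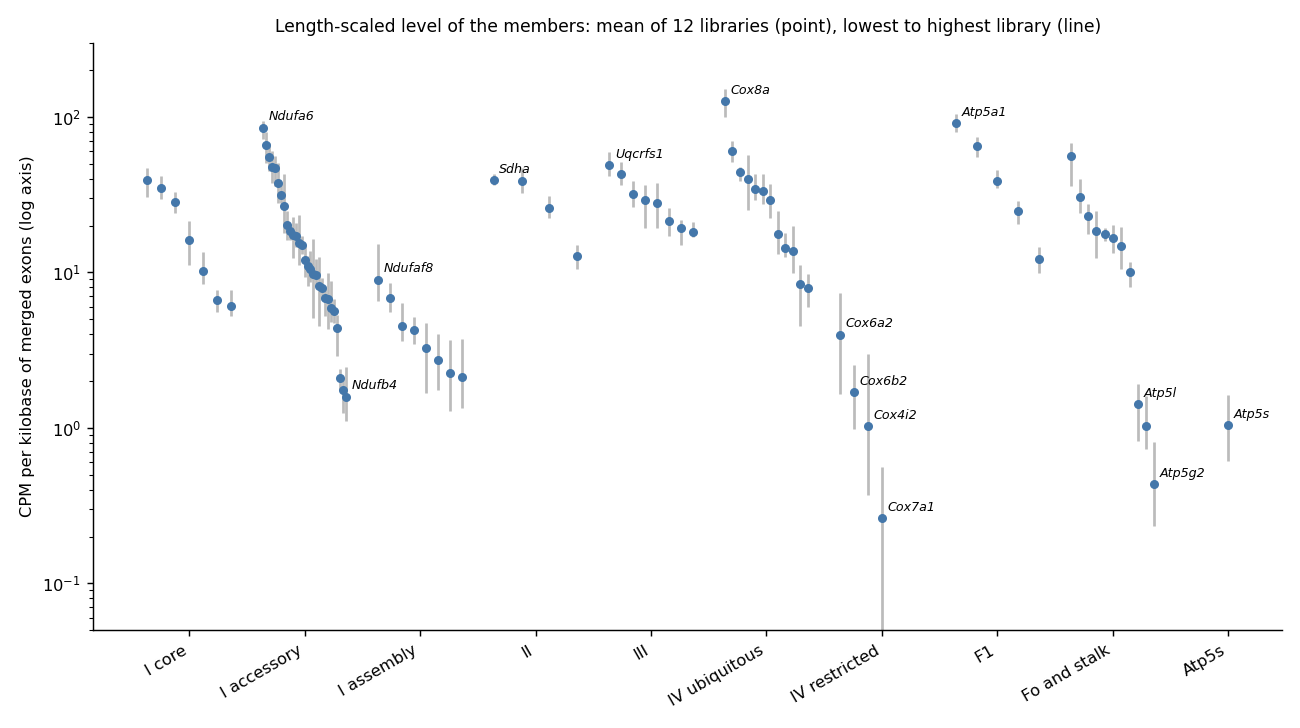
Length-scaled level of the members (CPM per kilobase, log axis) by role, with the mean of the 12 libraries as a point and the lowest to highest library as a line. Ubiquitous subunits of complex IV reached 127 (Cox8a), whereas the tissue-restricted isoforms lay at 3.98 (Cox6a2) or lower. Members with a mean under 0.05 are not drawn.

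LSKs carried the ubiquitous isoforms of complex IV. Cox4i1 was at 77.2 to 114 CPM over the 12 libraries, whereas Cox4i2, the lung isoform, was at 0.429 to 3.45. Cox6a1 was at 29.8 to 67.4 CPM and its heart and muscle counterpart Cox6a2 at 1.13 to 5.03. Cox6b1 was at 31.9 to 49.8 CPM, against 2.77 to 7.13 for the testis isoform Cox6b2. Cox7a2 was at 16.4 to 23.3 CPM and Cox7a2l, a factor that joins complexes III and IV, at 58.7 to 80.6, while the muscle isoform Cox7a1 stayed at or below 0.395. Cox8a was at 54.0 to 82.4 CPM, Cox8b had 3 counts in 1 library and none in the other 11, and Cox8c had no count. Ndufa4, a subunit of complex IV despite its name, was at 16.2 to 26.3 CPM and its relative Ndufa4l2 had 1 count in all. Of the 3 genes for the ring subunit c of ATP synthase, Atp5g3 was at 39.0 to 59.4 CPM, Atp5g1 at 7.17 to 15.6 and Atp5g2 at 0.496 to 1.7. The 5 members Cox7a1, Cox7b2, Cox8b, Cox8c and Ndufa4l2 fell under edgeR's filter on low counts in every comparison, and the other 88 were tested.

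The loss of Tespa1 was compared with wild type after 5-FU to ask how stressed LSKs differ. In Tespa1-/- LSKs after 5-FU, 15 of the 88 members tested were higher than in Tespa1+/+ LSKs after 5-FU at an adjusted p below 0.05 (edgeR quasi-likelihood test, Benjamini-Hochberg over all genes), and 0 were lower. Of 17239 genes tested, 13.1% were called, 7.34% higher and 5.78% lower, against 17.0% of the members called higher. Without adjustment, 31 members passed 0.05, all higher (26.7% of all genes, in either direction), and DESeq2 called 20, all higher. Other fits kept fewer of the 15 calls. With the replicate number as a block 10 were kept, without Tespa1-/- replicate 2 after 5-FU 7, and with GC and length correction plus the block 5. The calls named here are Ndufv1, Ndufb3, Ndufb9, Ndufv3 and the assembly factor Ndufaf6 of complex I, Uqcrc1, Uqcrfs1, Uqcr11 and Uqcrq of complex III, Cox4i1 and Cox6a1 of complex IV, and Atp5a1, Atp5b and Atp5g3 of ATP synthase. Most of the differences were small. The log2 fold changes of the 15 ran from 0.23 to 0.97, and 5 of them also exceeded 1.5-fold. Of all genes, 6.98% were called and exceeded it. The median over the 88 members was 0.20 on the log2 scale (1.15-fold) against -0.01 over all genes tested, and 72 members had a fold change above 0, as had 49.1% of all genes, and 16 below. At an unadjusted p below 0.05 and over 1.5-fold there were 6 members, against 11.7% of all genes. All 3 Tespa1-/- libraries lay above all 3 Tespa1+/+ libraries in 38 members (43.2%), against 17.4% of all genes tested, and below them in 3 (3.41%), against 15.6%. These 3 were Ndufs5, Uqcrc2 and Atp5s, named after their values were seen.

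**Figure D2:**
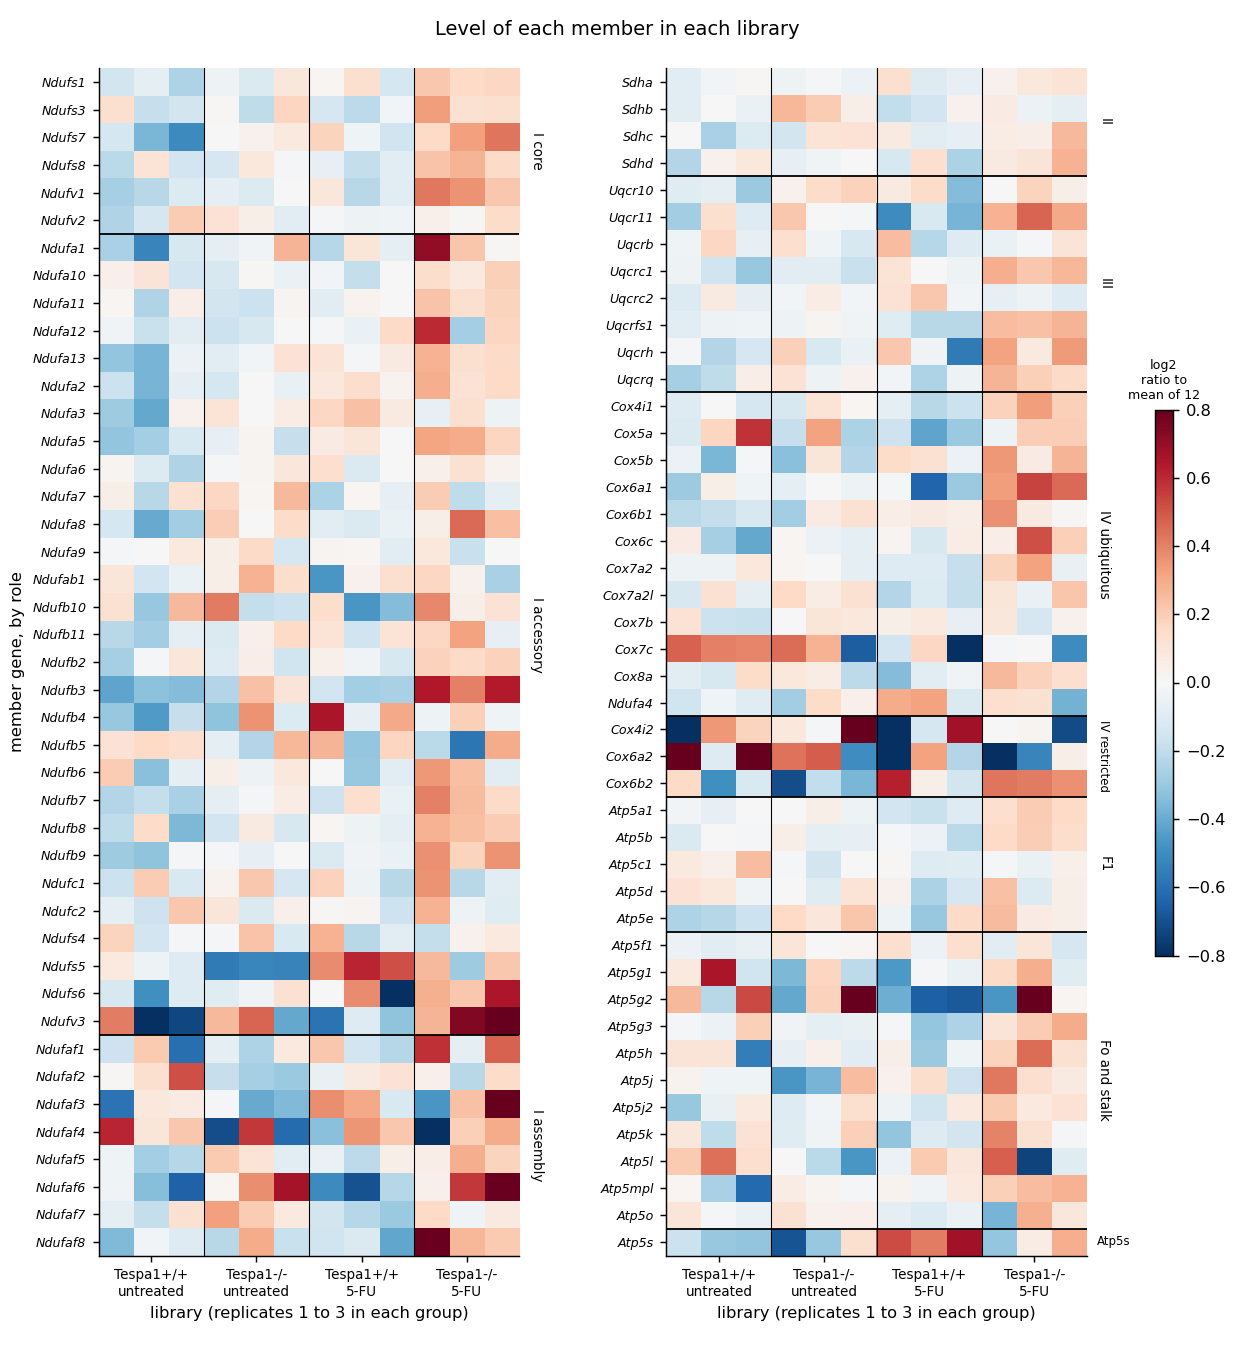
Level of the members tested, all but 1 of the 88 (rows, by role), in each of the 12 libraries (columns), as the log2 ratio to the mean of the 12 libraries, computed with 0.1 CPM added. The 3 columns of Tespa1-/- after 5-FU are redder than the others, and the median over members was 0.13 to 0.18 there and -0.11 to 0.01 in the other 9 libraries.

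The 3 Tespa1-/- libraries after 5-FU also stood above the other 9 over the list as a whole. The 93 members summed to 4492, 4415 and 4505 CPM in untreated Tespa1+/+ replicates 1 to 3 and to 4651, 4689 and 4623 CPM in untreated Tespa1-/-. After 5-FU they summed to 4639.6, 4398 and 4377 CPM in Tespa1+/+ and to 5221, 5209.6 and 5187 CPM in Tespa1-/-, so that the last group did not overlap any other. Its mean was the highest of the 4 groups in 57 of the 88 members (64.8%), against 31.1% of 18696 genes. The same 3 libraries were higher in the neutrophil, erythroid and eosinophil and mast cell markers given above. They also carried more of the 20 G2/M genes, which act in mitosis: these summed to 5109 to 5222 CPM against 3484 to 3583 in Tespa1+/+ after 5-FU, and 18 of the 20 were called higher. The part of cell mix and of cell division in the members' difference was not tested.

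**Figure D3:**
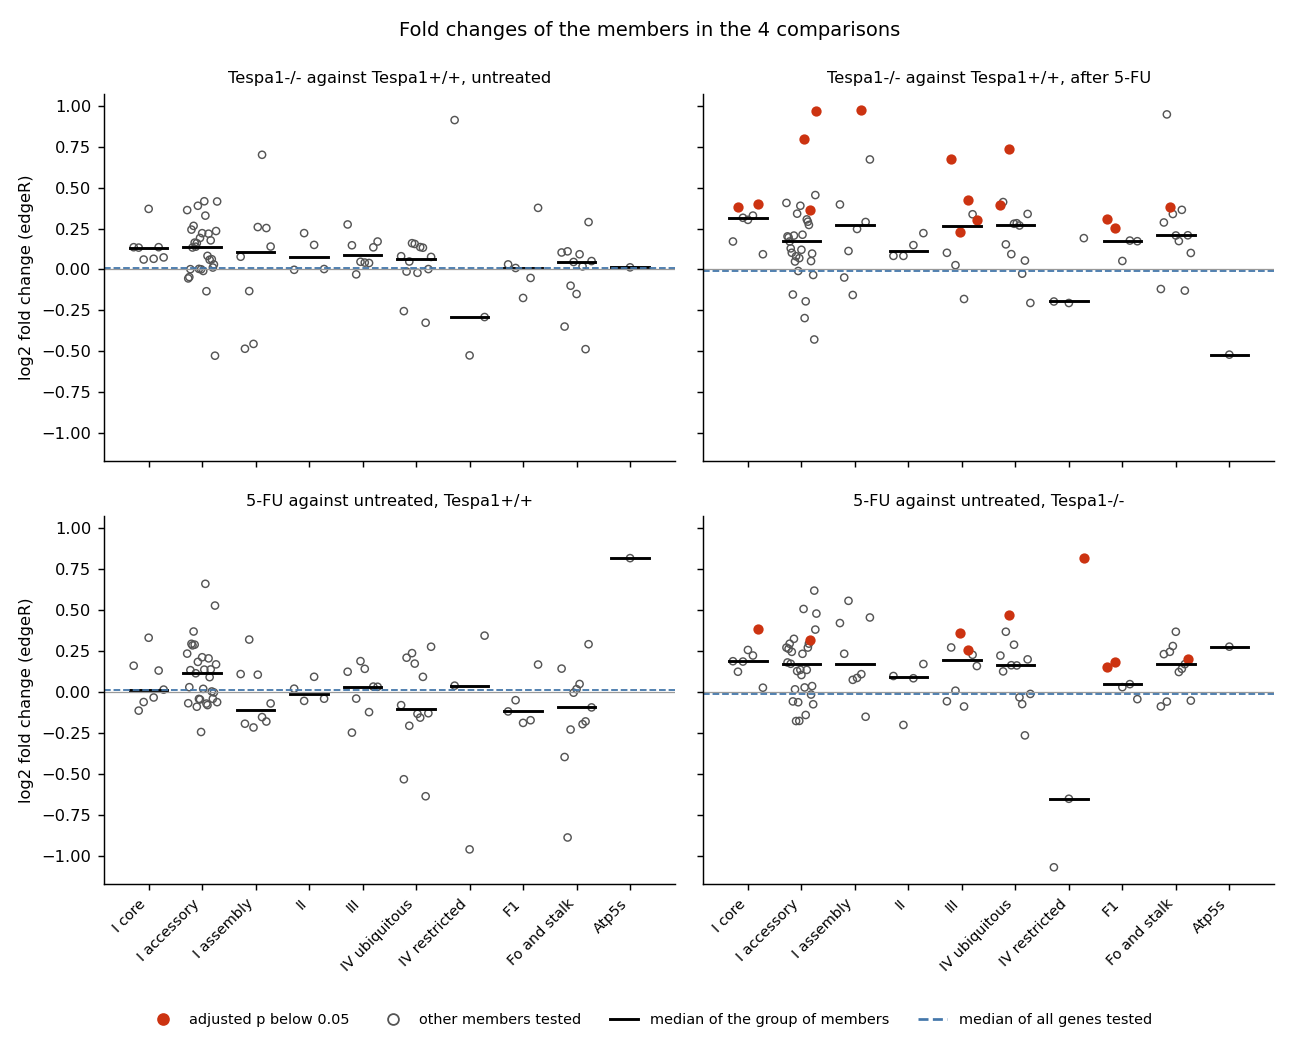
Log2 fold change of each member tested (points, by role) in the 4 comparisons, with members called at an adjusted p below 0.05 filled in red, the median of each role as a black bar and the median of all genes tested as a dashed line. After 5-FU the genotype comparison had 15 calls, all above 0, and the untreated comparison had 0.

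Complex I held 6 of the 15 calls among 44 members tested (13.6%, against 7.34% of all genes called higher). Its median log2 fold change in this comparison was 0.20. Of the 7 core subunits, which carry the flavin and the iron-sulfur clusters, 2 were called (28.6%, against 7.34% of all genes called higher). The 7 fold changes were all above 0 (49.1% of all genes). In 6 the genotypes did not overlap, with Tespa1-/- higher (17.4% of all genes). Ndufv1, the subunit that binds NADH, was at 62.1, 50.04 and 54.9 CPM in Tespa1+/+ and at 78.3, 74.8 and 67.7 CPM in Tespa1-/-. The groups did not overlap, and the log2 fold change was 0.40 ± 0.10 (SE; adjusted p = 0.0319), a call lost with any of 4 of the 6 libraries left out. Among the core subunits that did not pass, Ndufs8 stood at 0.33 (adjusted p = 0.0663), Ndufs3 at 0.32, Ndufs7 at 0.30, Ndufs1 at 0.17 and Ndufv2 at 0.09 on the log2 scale. Ndufs3 shares 39.7% of its 50-base words with other genes, so its reads could be split.

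The largest changes within complex I were in accessory subunits, which surround the core and are needed for its assembly and stability, and in an assembly factor. Ndufv3 was at 19.4, 27.2 and 23.4 CPM in Tespa1+/+ after 5-FU and at 35.3, 48.9 and 52.9 CPM in Tespa1-/- after 5-FU, 1.95-fold higher (log2 0.97 ± 0.18, adjusted p = 0.00713). All 3 Tespa1-/- libraries were above all 3 Tespa1+/+ libraries, but the untreated Tespa1+/+ libraries alone ranged from 16.3 to 38.9 CPM. Ndufb3, a membrane-arm subunit named here after its values were seen, was at 10.3, 9.44 and 9.54 CPM and at 17.9, 15.2 and 17.8 CPM, 1.73-fold higher (log2 0.79 ± 0.16, adjusted p = 0.0108). It was among the 4 members called in every fit tried. Ndufb9, also of the membrane arm, was at 50.6, 53.7 and 52.9 CPM and at 70.6, 61.9 and 70.3 CPM (log2 0.36 ± 0.09, adjusted p = 0.0245), and it shares 23.4% of its 50-base words with another gene. Its call was lost under 4 of 11 alternatives, the replicate block among them, and with any of 5 of the 6 libraries left out, with adjusted p up to 0.181. Ndufaf6, a factor in early assembly of complex I, was at 4.09, 3.59 and 5.00 CPM and at 6.03, 8.71 and 10.2 CPM, 1.96-fold higher (log2 0.97 ± 0.27, adjusted p = 0.0425). This lowest of the called genes lost its call when any of 5 of the 6 libraries was left out and under 5 of 11 alternatives, the replicate block among them, with adjusted p up to 0.148 over all fits. Of the 29 accessory subunits 3 were called (10.3%, against 7.34% of all genes called higher). Fold changes were above 0 in 23 (49.1% of all genes) and below in 6, the lowest being Ndufs5 at -0.43 (adjusted p = 0.222). Ndufs5 was at 10.8, 12.7 and 11.9 CPM in Tespa1+/+ and at 9.98, 6.82 and 9.66 CPM in Tespa1-/-, and it shares 31.1% of its 50-base words with a processed pseudogene. Its groups did not overlap, in the direction opposite to that of most members.

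Complex II, the only complex with no mitochondrially encoded subunit, had no call among its 4 genes and no gene whose groups were apart (0 by edgeR, also without adjustment, and 0 by DESeq2), where 13.1% of all genes were called and 17.4% and 15.6% were apart in the higher and lower direction. With 4 genes these counts do not set the complex apart, and the 4 fold changes were all above 0. Sdha was at 253, 216 and 221 CPM in Tespa1+/+ after 5-FU and at 237, 245 and 250.1 CPM in Tespa1-/- after 5-FU. These ranges overlapped, and the log2 difference was 0.08 ± 0.07 (adjusted p = 0.495). Sdhb, the iron-sulfur subunit, differed by 0.08, and the membrane anchors Sdhc and Sdhd by 0.15 and 0.22 on the log2 scale, with adjusted p of 0.627, 0.388 and 0.281.

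Complex III had 4 calls among 8 genes, all higher, a share of few genes, where 7.34% of all genes were called higher. Uqcrfs1 (chromosome 13, 30540308 to 30545362, minus strand, GRCm38), the Rieske protein that passes electrons to cytochrome c1, was at 62.3, 57.0 and 57.2 CPM in Tespa1+/+ after 5-FU and at 79.0, 78.2 and 80.6 CPM in Tespa1-/- after 5-FU. The lowest Tespa1-/- library was well above the highest Tespa1+/+ library, with a log2 fold change of 0.43 ± 0.08 (adjusted p = 0.00629), and the call held in every fit tried. Uqcr11, a small subunit, was at 21.3, 27.7 and 23.3 CPM and at 36.7, 41.8 and 37.3 CPM, 1.597-fold higher (log2 0.68 ± 0.13, adjusted p = 0.00911). It too was called in every fit tried. Uqcrc1, a core protein of the matrix face, was at 141, 132 and 128 CPM and at 161, 152 and 158 CPM (log2 0.23 ± 0.06, adjusted p = 0.0426). Uqcrq, named after its values were seen, was at 75.5, 64.6 and 74.5 CPM and at 92.7, 87.6 and 85.4 CPM (log2 0.30 ± 0.08, adjusted p = 0.0422). These 2 calls were close to the threshold: with 1 library left out at a time, Uqcrc1 lost its call in 5 of 6 fits and Uqcrq in 6 of 6, and both lost it under the replicate block and other alternatives (6 and 7 of 11). Uqcrc2, the partner of Uqcrc1, lay in the other direction at -0.18 ± 0.09 (adjusted p = 0.225), with 68.2, 72.9 and 61.8 CPM in Tespa1+/+ and 59.9, 61.0 and 58.6 CPM in Tespa1-/-, and 24.8% of its 50-base words are shared with another gene.

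In complex IV, 2 of 12 ubiquitous subunits were called (16.7%, against 7.34% of all genes called higher). Fold changes were above 0 in 10 (83.3%, against 49.1% of all genes). Cox6a1 was at 46.2, 29.8 and 37.8 CPM in Tespa1+/+ after 5-FU and at 58.5, 67.4 and 63.7 CPM in Tespa1-/- after 5-FU, 1.66-fold higher (log2 0.73 ± 0.15, adjusted p = 0.0115). The groups were apart although the Tespa1+/+ libraries were widely spread. Cox4i1, the regulatory subunit that starts assembly around the catalytic core, was at 85.4, 77.2 and 80.1 CPM and at 103, 114 and 103 CPM (log2 0.39 ± 0.07, adjusted p = 0.00823). Its exons overlap those of Emc8 on the opposite strand. Cox5a (log2 0.41, adjusted p = 0.0542) and Cox8a (0.34, adjusted p = 0.0507) had groups that did not overlap but did not pass. Cox5b stood at 0.15, Cox6b1 at 0.09, Cox7a2 at 0.28, Cox7a2l at 0.27 and Ndufa4 at -0.20. The 3 restricted isoforms tested gave values of -0.20 (Cox4i2), -0.20 (Cox6a2) and 0.19 (Cox6b2), none called, so the isoform pairs were not called in opposite directions.

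**Figure D4:**
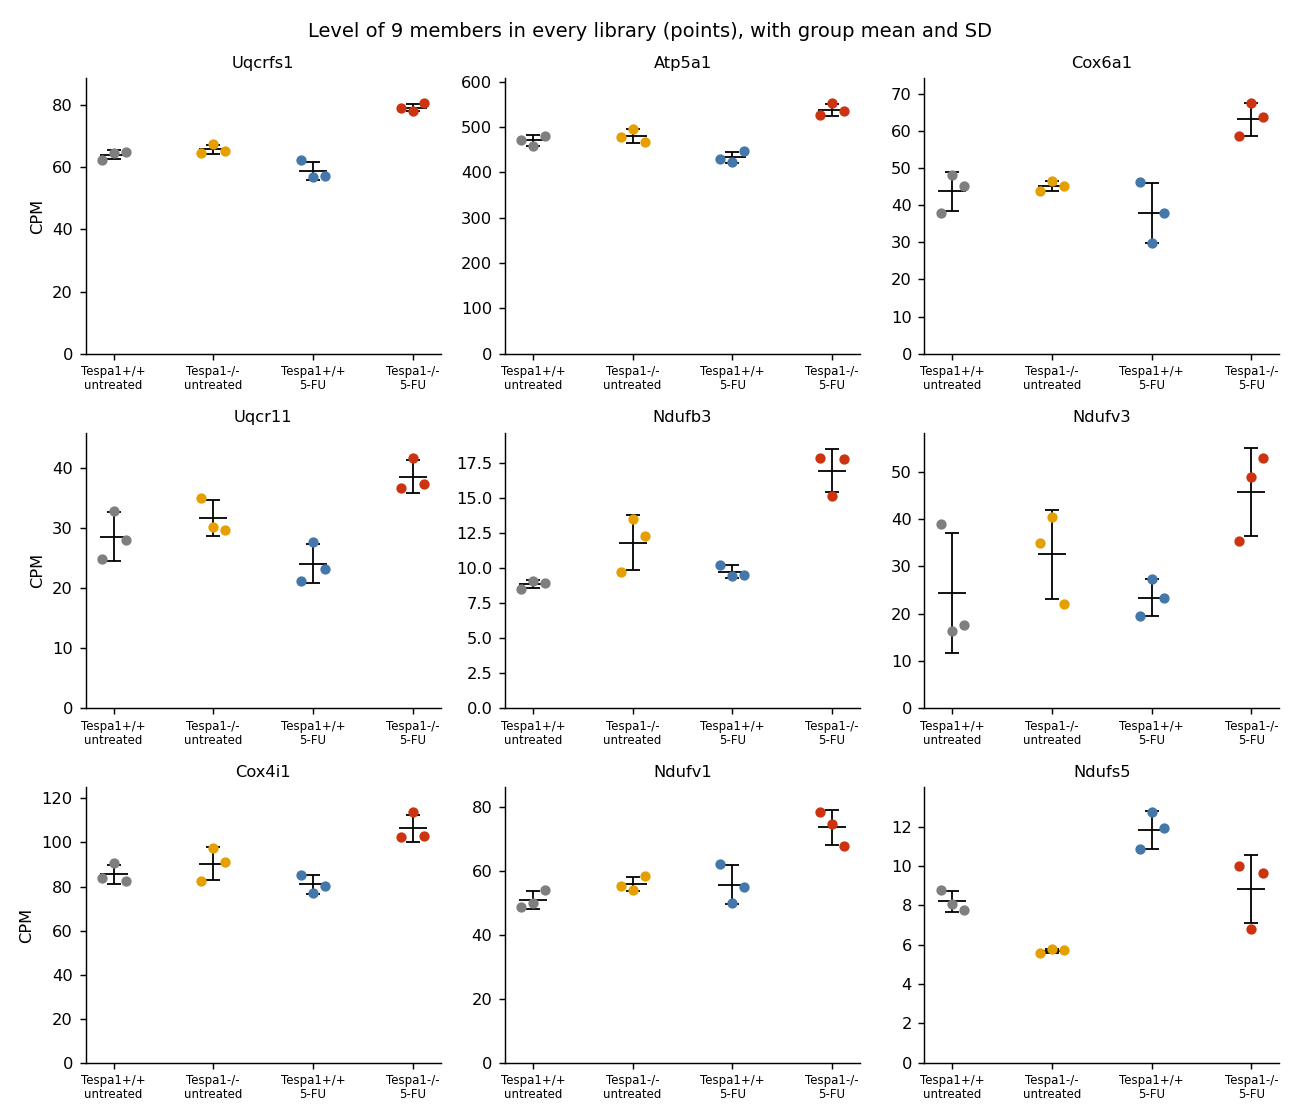
Level (CPM) of 9 members in every library of the 4 groups, with the group mean and SD as a bar. In Uqcrfs1, Atp5a1, Cox6a1, Uqcr11, Ndufb3, Cox4i1 and Ndufv1 the 3 Tespa1-/- libraries after 5-FU lie above the other 9, whereas Ndufs5 is lower in them than in Tespa1+/+ after 5-FU.

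ATP synthase carried 3 calls among 17 members tested (17.6%, against 7.34% of all genes called higher). Its F1 head holds the catalytic sites, and 2 of the 5 head genes were called (40.0%, a share of few genes). Atp5a1 was at 430.3, 423 and 447 CPM in Tespa1+/+ after 5-FU and at 526, 552 and 535 CPM in Tespa1-/- after 5-FU, a log2 fold change of 0.31 ± 0.04 (adjusted p = 0.00141). It had the smallest adjusted p of all members and kept its call in every fit tried, and its exons overlap those of Haus1 on the opposite strand. Atp5b was at 441, 432 and 383 CPM and at 497, 512 and 490.4 CPM (log2 0.25 ± 0.06, adjusted p = 0.0194), with the genotypes apart. Atp5c1, the central stalk, was at 139, 129 and 129 CPM and at 137, 133 and 142 CPM and differed by 0.05 (adjusted p = 0.662). Of the 11 genes of the membrane part and stalks, 1 was called (9.09%, near the 7.34% of all genes called higher). This gene, Atp5g3, was at 48.1, 39.0 and 40.8 CPM and at 52.0, 55.8 and 59.4 CPM (log2 0.38 ± 0.11, adjusted p = 0.0484). Its call was lost in 8 of 11 alternatives, the replicate block among them, and in 5 of the 6 fits that left out 1 library. Atp5g1 stood at 0.29 (adjusted p = 0.428) and Atp5g2, at about 1 CPM, at 0.95 ± 0.66 (adjusted p = 0.411). Atp5s, a gene with the Atp5 symbol that codes no subunit of the enzyme, had the lowest fold change of all members at -0.52 ± 0.26 (adjusted p = 0.247).

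Untreated LSKs were compared between the genotypes to see whether the difference was there without stress. No member was called by edgeR (0 of 88), against 5.23% of 17055 genes tested, 1.64% higher and 3.59% lower, and 2.51% called with over 1.5-fold. DESeq2 called 3, all higher. Without adjustment 13 members passed 0.05 (9 up, 4 down), against 18.5% of all genes, and 1 of them exceeded 1.5-fold, against 6.74%. On the log2 scale the members' median was 0.08 and that of all genes 0.01, with 66 members above 0 (51.2% of all genes) and 22 below. The smallest adjusted p was 0.0598, for Atp5e, the epsilon subunit of the F1 head, which was at 25.8, 26.1 and 27.2 CPM in Tespa1+/+ and at 34.2, 32.6 and 35.7 CPM in Tespa1-/- (log2 0.38 ± 0.09). Its groups were apart, and it was named after its values were seen. Genotypes did not overlap in 11 members with Tespa1-/- higher, against 12.4% of all genes, and in 4 with Tespa1-/- lower, against 13.2%. Of the 15 members called after 5-FU, 14 had a fold change above 0 in untreated LSKs, with a median of 0.13, and 2 had an unadjusted p below 0.05. Uqcrfs1 was at 62.5, 64.7 and 65.0 CPM in untreated Tespa1+/+ and at 64.7, 67.5 and 65.2 CPM in untreated Tespa1-/- (log2 0.04 ± 0.07, adjusted p = 0.808), and Atp5a1 at 472, 459 and 481 CPM and at 479, 496 and 466 CPM (0.03 ± 0.04, adjusted p = 0.752). Both genes overlapped between the genotypes. The LSK, neutrophil, B cell and megakaryocyte marker sums did not overlap between these same groups, as given above. Nor did those of the erythroid markers (106 to 136 CPM in Tespa1+/+ and 149 to 164 in Tespa1-/-), the monocyte and macrophage markers (158 to 187 and 193 to 207) and the eosinophil and mast cell markers (8.45 to 13.2 and 14.8 to 17.6). The part of these markers in the untreated values was not tested.

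In Tespa1+/+ LSKs, no member was called after 5-FU against untreated by edgeR (0 of 88), against 7.95% of 17002 genes tested, 3.77% higher and 4.18% lower, and 4.43% called with over 1.5-fold. DESeq2 called 1, Cox5a, which was lower. Without adjustment 13 members passed 0.05 (9 up, 4 down), against 21.5% of all genes, and 2 of them exceeded 1.5-fold, against 9.88%. The members' median was 0.02 on the log2 scale and that of all genes 0.01, and 46 members stood above 0 (51.7% of all genes) and 42 below. Groups did not overlap in 12 members in the higher direction, against 14.0% of all genes, and in 8 in the lower, against 14.4%. The F1 head had 4 of 5 fold changes below 0, Atp5c1 at -0.19 and Atp5a1 at -0.12, while 19 of 29 accessory subunits of complex I were above 0. None of these passed, the smallest adjusted p being 0.0920, for Atp5s (log2 0.82 ± 0.26).

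In Tespa1-/- LSKs, 5-FU raised 9 members and lowered 0 at an adjusted p below 0.05. Of 17228 genes tested, 19.4% were called, 10.7% higher and 8.64% lower, so the members' share of 10.2% was near that of all genes. The median over the members was 0.16 and that of all genes -0.01, with 67 members above 0 (49.1% of all genes) and 21 below. Without adjustment 31 members passed 0.05 (30 up, 1 down), against 32.3% of all genes, and 2 of them exceeded 1.5-fold, against 14.4%. Groups did not overlap in 33 members in the higher direction, against 20.3% of all genes, and in 1 in the lower, against 18.2%. The 9 were Ndufv1 and Ndufb9 of complex I, Uqcrc1 and Uqcrfs1 of complex III, Cox6a1 and Cox6b2 of complex IV, and Atp5a1, Atp5b and Atp5mpl of ATP synthase. Cox6a1 went from 43.9, 46.6 and 45.2 CPM to 58.5, 67.4 and 63.7 CPM (log2 0.47 ± 0.08, adjusted p = 0.00329) and Uqcrc1 from 124, 123 and 116 CPM to 161, 152 and 158 CPM (0.36 ± 0.05, adjusted p = 0.00180). Both kept their calls in every fit tried. Cox6b2, the isoform otherwise known from testis, rose from 2.77, 3.995 and 3.54 CPM to 6.21, 6.16 and 5.96 CPM (0.82 ± 0.21, adjusted p = 0.0266). It was the only called member of this comparison above 1.5-fold, while 10.1% of all genes were called above that fold. Its call was lost under 4 of 11 alternatives, the replicate block among them, and with any of 5 of the 6 libraries left out. Atp5mpl, a small membrane subunit, rose from 106, 103 and 101 CPM to 116, 121 and 124 CPM (0.20 ± 0.05, adjusted p = 0.0288), a call lost under 6 of 11 alternatives, the replicate block among them, and with any of 5 of the 6 libraries left out. Ndufv1 stood at 0.39, Ndufb9 at 0.32, Uqcrfs1 at 0.26, Atp5b at 0.19 and Atp5a1 at 0.15 on the log2 scale. Leaving out 1 library at a time lost the call of Ndufb9 in 5 fits, Atp5a1 in 3, Atp5b and Uqcrfs1 in 2 each and Ndufv1 in 0. Of 11 alternatives, Atp5a1 lost its call in 3, Atp5b in 2, Ndufv1 and Ndufb9 in 1 each and Uqcrfs1 in 0. Over all fits Atp5a1 ran from 0.08 to 0.17, with adjusted p up to 0.210. The libraries of Tespa1-/- after 5-FU entered this comparison and the genotype comparison after 5-FU, so the 7 members called in both rest in part on the same 3 libraries. In this comparison 14 of 14 neutrophil, 12 of 12 erythroid and 17 of 20 G2/M genes were also called higher, the last summing to 3649 to 3714 CPM untreated and 5109 to 5222 after 5-FU, and their part was not tested.

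The interaction term asks whether the genotype difference was itself different after 5-FU. It was called for 2 of the 88 members, both positive, against 5.01% of 18696 genes tested, 3.02% positive and 1.99% negative. Neither term exceeded 1.5-fold, while 3.21% of all genes were called and exceeded it. Without adjustment 13 members passed 0.05 (12 positive, 1 negative), against 18.7% of all genes, 2 of them over 1.5-fold, against 10.4%, and 62 terms were above 0 (48.1% of all genes). For Atp5a1 the term was 0.28 ± 0.06 on the log2 scale (adjusted p = 0.0100): Tespa1+/+ libraries were lower after 5-FU (430.3, 423 and 447 CPM against 472, 459 and 481) and Tespa1-/- libraries higher (526, 552 and 535 CPM against 479, 496 and 466). For Uqcrfs1 it was 0.39 ± 0.09 (adjusted p = 0.0253): Tespa1+/+ libraries were at 62.3, 57.0 and 57.2 CPM after 5-FU against 62.5, 64.7 and 65.0 untreated, and Tespa1-/- libraries at 79.0, 78.2 and 80.6 against 64.7, 67.5 and 65.2. In both genes the 2 genotypes overlapped before 5-FU and were apart after it. Cox6a1, at 0.69 (adjusted p = 0.0605), and Atp5g3, at 0.49 (adjusted p = 0.0640), did not pass, and the remaining members had larger adjusted p. With the replicate number as a block the count was 1, Uqcrfs1 losing its call, as it did in 9 of the 12 fits that left out 1 library.

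The subunits encoded by the mitochondrial genome sit in the same complexes. Of the 13 tested, 8 were called lower in Tespa1-/- than in Tespa1+/+ after 5-FU and 0 higher, against 5.78% of all genes called lower, with a median of -0.21 on the log2 scale and 1 of the 13 above 0, and 8 were called lower in untreated Tespa1-/- LSKs, with a median of -0.30, against 3.59% of all genes. Their sum was 9498, 9697 and 9588 CPM in Tespa1+/+ after 5-FU and 8372, 7901 and 8317 CPM in Tespa1-/- after 5-FU, and the groups were apart. mt-Atp6, a membrane subunit of ATP synthase, was at 1066, 1096 and 1081 CPM in the former and at 844, 846 and 877 CPM in the latter (log2 -0.34, adjusted p = 0.00018). mt-Nd5, a proton-pumping subunit of complex I, was at 1111, 1126 and 1097 CPM and at 919, 870.1 and 898 CPM (log2 -0.31, adjusted p = 0.00031). In both genes, named after their values were seen, the 3 Tespa1-/- libraries were the lower ones. After 5-FU, 11 of the 13 were called lower in Tespa1+/+ and 12 in Tespa1-/-, against 4.18% and 8.64% of all genes, with medians of -0.41 and -0.35, and the interaction was called for 0 of them by edgeR (2 without adjustment), with 11 of the 13 terms above 0 and a median of 0.09. The marker sums given above also differed between these groups, and their part in these values was not tested.

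Other genes tied to respiration were taken from lists drawn up alongside the members. Cyc1, cytochrome c1 of complex III, was at 45.3, 47.2 and 44.9 CPM in Tespa1+/+ after 5-FU and at 59.7, 56.8 and 58.3 CPM in Tespa1-/- after 5-FU (log2 0.34, adjusted p = 0.025), with the genotypes apart. Cycs, the soluble cytochrome c, was at 22.02, 26.3 and 26.8 CPM and at 21.4, 19.9 and 19.5 CPM (log2 -0.31, adjusted p = 0.18). Of 13 genes of the tricarboxylic acid cycle tested, 3 were called higher after 5-FU in Tespa1-/- LSKs and 0 lower (23.1% higher, against 7.34% of all genes), with a median of 0.23: Mdh2 (malate dehydrogenase, 0.37), Cs (citrate synthase, 0.31) and Ogdh (oxoglutarate dehydrogenase, 0.23). None of 33 assembly factors of complexes II to V and none of 8 assembly factors of complex I with other names were called by edgeR (2 and 1 without adjustment), with medians of 0.09 and 0.03. Of 78 mitochondrial ribosomal protein genes 5 were called higher and 0 lower (median 0.17), a share of 6.41% against 7.34% of all genes called higher. Of 85 cytosolic ribosomal protein genes 3 were higher and 5 lower (median -0.02), 9.41% in all against 13.1% of all genes. The neutrophil, erythroid and eosinophil and mast cell markers and the G2/M genes also differed between these groups, and their part in these values was not tested.

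Of 14 regulators of mitochondrial gene expression, 1 was called in the genotype comparison after 5-FU: Gabpb2, a partner of GABPA, at 0.40 on the log2 scale (adjusted p = 0.0082). That share, 7.14%, was near the 7.34% of all genes called higher. In untreated LSKs 2 were called, both higher in Tespa1-/-: Gabpb2 (0.30, adjusted p = 0.048) and Myc, a share of 14.3% against 1.64% of all genes. With 5-FU, 2 were called lower in Tespa1+/+ (14.3%, against 4.18% of all genes), Gabpb1 (-0.38) and Yy1 (-0.28), and 3 in Tespa1-/- (21.4%, against 8.64%), Gabpb1 (-0.42), Yy1 (-0.28) and Myc (-0.49). In the genotype comparison after 5-FU, Nrf1 stood at 0.00 and Gabpa at -0.02, and the coactivators Ppargc1a and Ppargc1b at -1.46 (adjusted p = 0.10) and 0.32 (adjusted p = 0.39). Tfam, which packages the mitochondrial genome, stood at -0.26 (adjusted p = 0.13). Myc was at 131, 133 and 163 CPM in untreated Tespa1+/+, 185, 209 and 184 CPM in untreated Tespa1-/-, 129, 163 and 127 CPM in Tespa1+/+ after 5-FU and 129, 136 and 152 CPM in Tespa1-/- after 5-FU. It was called higher in untreated Tespa1-/- LSKs (0.44, adjusted p = 0.036) but not after 5-FU (-0.02, adjusted p = 0.95). Marker sums given above also differed between the groups, and their part in the regulators' values was not tested.

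**Figure D5:**
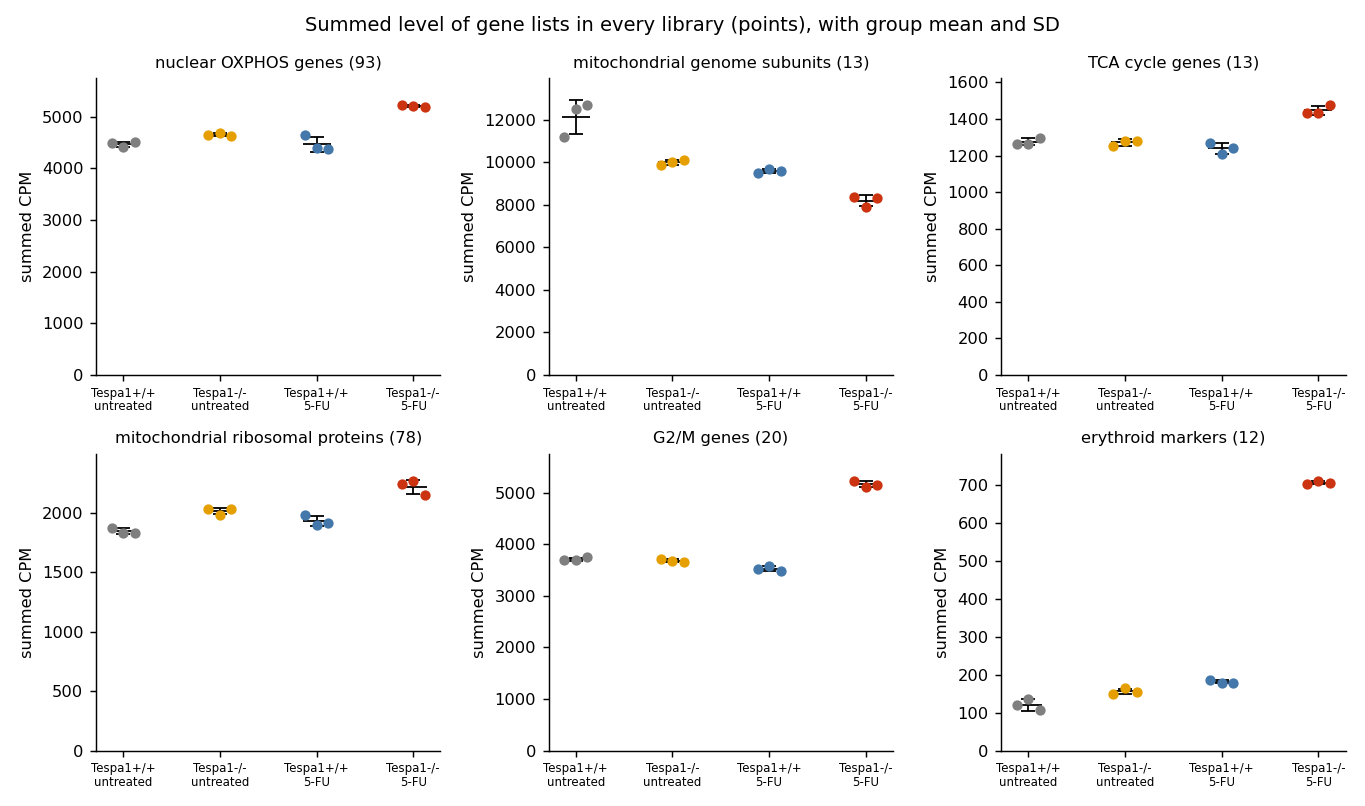
Summed level (CPM) of 6 gene lists in each of the 12 libraries, with group means and SD. The 93 members reach 5187 to 5221 CPM in Tespa1-/- after 5-FU, where the subunits of the mitochondrial genome are at their lowest, 7901 to 8372 CPM.

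Shared sequence limits some of these values. Of the members, 16 share over 20% of their 50-base words with other genes and 46 share none. Of the 15 called after 5-FU, 1 (Ndufb9) is among the 16 and also overlaps Gm49356 on its own strand. Another 3 (Atp5a1 and Cox4i1 among them) overlap a gene on the opposite strand, and 11 have neither an opposite-strand overlap nor over 20% shared words. Some of these 11 still share words: Cox6a1 12.3%, Uqcr11 10.9% and Ndufb3 6.72%.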

How the data were processed

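RNA was taken from sorted LSKs of 4 groups of 3 libraries. The authors deposited raw counts and FPKM per gene on GRCm38; the submitters' processing notes name CASAVA 1.8, HISAT2, StringTie and edgeR, and whether counting used strand is not given in the sources used here. The deposited FPKM values served to recover gene lengths. The deposited counts were tested in edgeR 4.0.16 (R 4.3.3) with TMM factors, filterByExpr (minimum count 10) and the quasi-likelihood test, on the 6 libraries of each comparison and, for the interaction, on all 12, with Benjamini-Hochberg adjustment over all genes and a threshold of 0.05. CPM values use TMM factors over all 12 libraries. Scripts were tested on simulated data. The sources do not say that replicates came from separate mice, so p-values measure the spread between these libraries, which may be technical. Replicates differed by more than sampling noise in every group. The members and gene lists were chosen with earlier results of these data known. Genes named were the catalytic and isoform genes of each complex, the called members largest in change or smallest in p, the interaction calls and the highest and lowest levels. Outside the members, Cycs, Cyc1, Ppargc1a, Ppargc1b, Tfam, Nrf1, Gabpa, Myc and Tespa1 were set in the plan. Any other name was chosen after its values were seen, also where not marked. Among these are mt-Atp6, mt-Nd5, Mdh2, Cs, Ogdh, Gabpb1, Gabpb2 and Yy1. Alternatives were DESeq2 1.42.0, other size factors, no filter, other thresholds, a single fit of all libraries, the replicate number as a block, and leaving out each library. Corrections for GC and length were added after seeing the data. A single member is counted but not reported here. Figures were drawn with matplotlib 3.10.9.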

Additional observations from a re-analysis of the deposited data

Results flagged for a closer look

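The genotype difference itself changed with 5-FU in 2 members, by the interaction term of edgeR over 12 libraries (2.27% of the members, against 5.01% of all genes, 3.02% positive). For Atp5a1 it was 0.28 on the log2 scale (adjusted p = 0.0100): Tespa1-/- libraries were higher in 3 of 3 after 5-FU and overlapped Tespa1+/+ untreated. The call held in every fit but that with GC and length correction and the replicate block together (adjusted p = 0.0565). For Uqcrfs1 it was 0.39 (adjusted p = 0.0253), again with 3 of 3 Tespa1-/- libraries higher after 5-FU, and its adjusted p ranged from 0.00342 to 0.0800 over all fits. The neutrophil, erythroid and eosinophil and mast cell markers and the G2/M genes were also higher in the same 3 libraries, and their part in these differences was not tested.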

How the results depend on the processing

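No called member changed direction under any alternative, and 4 of the 15 members called for the genotype after 5-FU (Atp5a1, Ndufb3, Uqcr11 and Uqcrfs1), 2 of 9 called for 5-FU in Tespa1-/- LSKs (Cox6a1 and Uqcrc1) and 0 of 2 interaction calls kept their call in every fit. DESeq2 called 3 members in untreated LSKs, 1 for 5-FU in Tespa1+/+ LSKs, 16 for 5-FU in Tespa1-/- LSKs and 4 for the interaction. An adjusted p below 0.05 with a fold change above 1.5 gave 5 for the genotype after 5-FU, 1 for 5-FU in Tespa1-/- LSKs and 0 for the interaction. An unadjusted p below 0.05 with that fold gave 1 (genotype, untreated), 6 (genotype, after 5-FU), 2 (5-FU, Tespa1+/+) and 2 (5-FU, Tespa1-/-). Leaving out 1 library gave 0 to 1, 7 to 13, 0 to 1 and 4 to 10 calls in that order and 1 to 4 for the interaction. The fewest after 5-FU, 7, came without Tespa1-/- replicate 2, and 9 each came without Tespa1-/- replicate 1, Tespa1+/+ replicate 2 or Tespa1+/+ replicate 3. The 4 for 5-FU in Tespa1-/- LSKs came without untreated replicate 1 or 3. The median log2 fold change over the members stayed at 0.07 to 0.08, 0.19 to 0.22, -0.0118 to 0.0323 and 0.15 to 0.18 over these fits. Library totals without TMM moved the median to 0.18 for the genotype after 5-FU and to 0.0645 for 5-FU in Tespa1+/+ LSKs. GC and length correction moved the former to 0.17. The cause of these shifts was not tested.

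The replicate numbers are shared by the groups, but same-numbered libraries did not deviate together: correlations of their deviations ran from -0.08 to 0.03, with 0 of 12 over 0.1, and in 2 of these 12 pairs (3 numbers in 4 comparisons) the library correlated best with its own number. With the replicate number as a block, 10 members were called for the genotype after 5-FU, 8 for 5-FU in Tespa1-/- LSKs and 1 for the interaction (1 also with length correction). With the block and GC and length correction these were 5, 3 and 0, with medians of 0.17 and 0.14 for the first pair. Genes near 1 CPM were measured with less precision: the SE of the log2 fold change for the genotype after 5-FU was 0.66 for both Atp5g2 and Cox4i2, against 0.04 for Atp5a1.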
